A study of Elaeis oleifera with 12 samples.

Results

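The difference between the non-shedding (NSd) and the shedding (Sd) palm that was present at both the pre-ripe (PR) and the ripe stage was described in the fruit abscission zone (AZ) of American oil palm (Elaeis oleifera). All 12 libraries entered the comparison, 6 NSd against 6 Sd, with stage as a covariate. The tissue was the base of the fruit that contains the AZ. One palm of each kind was sampled, both from the same progeny: the NSd palm, coded 26-11, and the Sd palm, coded 28-7. The NSd palm gave replicates 1 to 3 (PR) and 4 to 6 (ripe) and the Sd palm replicates 7 to 9 (PR) and 10 to 12 (ripe). Each set of 3 came from 1 bunch, with about 50 AZ pieces (about 3 g) per library. The 4 bunches thus stand for 2 palms, and the palm and the shedding phenotype cannot be told apart. The p-values and standard errors (SE) of the average difference rest on variation within bunches and on how far the palm difference changed between the stages. Those of the difference at a single stage rest on variation within bunches alone, and none measures how palms of a kind vary. Of 29040 loci in the files, 20495 reached 1 RPKM (reads scaled to transcript length and library total) in at least 1 library and were tested. A locus is called constant here if its average palm difference was called and the differences at PR and at ripe were both above 1 or both below -1, and 177 loci were constant.

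Abscission is the shedding of an organ by separation of neighboring cells in the AZ, where enzymes loosen pectin and hemicellulose between and within the walls. Xyloglucan endotransglucosylase/hydrolases (XTHs) cut and rejoin the hemicellulose xyloglucan, while glycine-rich and proline-rich structural proteins are deposited in the wall itself. DREB and other ERF transcription factors, calmodulin-like calcium sensors and ZAT zinc finger factors are known for fast responses to cold, drought, wounding and touch. A comparison of 1 palm of each kind holds every difference between these 2 individuals at these stages.

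Libraries held 19090375 to 34004517 aligned reads, the smallest totals under which the RPKM steps were whole reads, so that 1 read at a transcript of 1500 bases is worth 0.0196 to 0.0349 RPKM. The PR NSd libraries stood apart. Their correlation with libraries of other groups was 0.897 to 0.941 (log2 scale, across loci), against 0.941 to 0.98 between the other groups, and reads on rRNA took at least 12.1% to 22.4% of their totals, against 1.21% to 13.4% in ripe NSd, 4.68% to 5.49% in PR Sd and 2.7% to 6.85% in ripe Sd. Summed RPKM of 68 photosynthesis loci was 752 to 795 in PR NSd, against 4332 to 4718 in PR Sd, and 3797 to 4912 in ripe NSd, against 2869 to 4231 in ripe Sd. Secondary wall and vascular loci (73) summed to 87.9 to 109.6 RPKM in PR NSd, against 208 to 232 in PR Sd, and to 249.6 to 277 in ripe NSd, against 189.7 to 236 in ripe Sd. The part of tissue composition in the palm difference was not tested, and in bulk tissue fewer cells of a type and less RNA per cell cannot be told apart. Of the AZ markers, 53 polygalacturonase loci summed to 187 to 236 RPKM in PR NSd, 184 to 265 in PR Sd, 308 to 634 in ripe NSd and 322 to 535 in ripe Sd. BLADE-ON-PETIOLE type loci (7) summed to at most 5.93 RPKM in any library, 9 HAESA-like kinase loci to 34.8 to 72.6 RPKM, and no locus is described as an IDA peptide.

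Averaged over both stages, 206 loci were higher in NSd (1.01% of the loci tested) and 151 were lower (0.737%), by limma (difference above 1 or below -1, and p after Benjamini-Hochberg adjustment under 0.01) on the log2(RPKM + 1) scale after rescaling by the median ratio. All 357 had the same sign at both stages. The fit left little room for anything else, as a palm difference that changes sign between the stages adds to its residual spread. Of the 357, 109 of the higher ones (0.532% of the loci tested) and 68 of the lower ones (0.332%) passed the limit of 1 at each stage. Leaving out 1 library moved the 357 calls by over 1.5 times in 4 cases, to 233 and 216 when PR NSd replicate 1 or 2 was left out and to 225 and 216 when PR Sd replicate 8 or 9 was left out, while constant loci numbered 134 to 212 over the 12 fits. The 206 higher calls fell most, to 116, 100, 112, 107 and 132 without replicate 1, 2, 8, 9 or 12, against 117, 116, 113, 109 and 146 lower calls in those fits, so the excess of higher over lower calls was not kept. These counts rest on libraries as units. With the mean of each bunch as the unit, which leaves 1 residual degree of freedom, limma called 0 loci, 917 (4.47%) had an unadjusted p under 0.05, and the smallest adjusted p was 0.695. At the PR stage alone 1176 loci were higher (5.74%) and 939 lower (4.58%), and at the ripe stage alone 183 were higher (0.893%) and 281 lower (1.37%). The palm difference itself differed between the stages at 2284 loci (11.1%, interaction term). Of 200 loci called at both stages, 105 differed in the same direction and 95 in opposite directions, and the 105 were 4.96% of the PR calls and 22.6% of the ripe calls. PR and ripe use separate libraries, and across the 20495 loci, which are not independent replicates, the 2 palm differences had a Pearson r of -0.00465 and a Spearman rho of 0.0224, with the same sign at 10783 loci (52.6%).

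**Figure D1:**
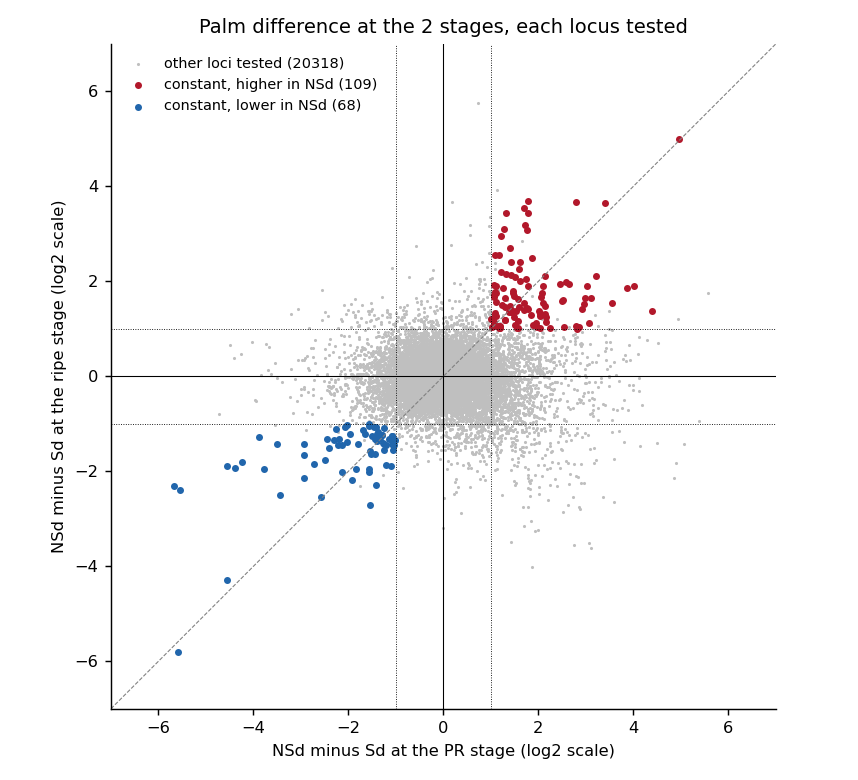
Palm difference (NSd minus Sd, log2 scale) of each locus tested, at the PR stage on the x axis and at the ripe stage on the y axis, with dotted lines at the limits of 1 and -1 and a dashed line of equal difference. The 109 constant loci higher in NSd (red) and the 68 lower in NSd (blue) are the points past both limits whose average was called, and the cloud of all loci shows no tilt along the dashed line (Pearson r of -0.00465).

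On the rescaled values, all 6 NSd libraries lay below all 6 Sd libraries at 60 of the 68 lower loci, and above them at 66 of the 109 higher loci. Of all loci tested, 1302 (6.35%) were apart in either direction. The constant loci were chosen for palm differences in these same libraries, so their separation is a description and no separate evidence. Libraries are called apart below on these rescaled values, while RPKM values are printed as deposited. The rescaling put the median palm difference of all loci at -0.0153, against -0.207 on deposited values and -0.122 with rRNA loci left out of the totals. Without rescaling, differences thus moved down together, lower loci away from the limit of -1 and higher loci toward the limit of 1. All 68 lower loci and 67 of the 109 higher loci were then constant, and 68 and 82 with rRNA left out, so these counts do not rank the 2 sets. The split of all called loci was 115 higher and 297 lower without it, against 206 and 151 with it. Without the 3 PR NSd libraries the palm term of the fit is in effect the ripe difference, for which constant loci were chosen, and 60 of the 68 lower and 59 of the 109 higher loci were called. That fit repeats the ripe comparison with fewer libraries and is given below only as such. The median of the highest group mean was 10.2 RPKM for the lower loci and 56.0 RPKM for the higher loci.

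The plainest cases were loci whose difference was nearly the same size at both stages. The stage differences lay within 0.5 of each other at 36 lower and 45 higher loci, and within 0.1 at 6 and 11. LOC105054935, a non-coding RNA with no known role, had 0, 1.51 and 1.19 RPKM in PR NSd, against 55.1, 63.9 and 254 RPKM in PR Sd. At the ripe stage it had 0.263, 0.0599 and 0 RPKM in NSd, against 62.7, 97.2 and 47.1 RPKM in Sd. The average difference was -5.7 ± 0.38 (SE), with -5.59 at PR and -5.81 at ripe (limma, adjusted p of 9.96e-06). Every NSd library was low and every Sd library high, with no overlap. LOC105044730, another non-coding RNA, showed the reverse, with 18.3, 30.7 and 29 RPKM in PR NSd and 62.8, 34.6 and 33.5 RPKM in ripe NSd. In Sd it reached 0, 0.0941 and 0 RPKM at PR and 0.746, 0 and 0.268 RPKM at ripe. It differed by 4.98 ± 0.16 (SE) on average, 4.96 at PR and 4.99 at ripe (adjusted p of 2.17e-08 by limma).

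Among loci with a described product, LOC105055575 encodes the alpha subunit of the RuBisCO large subunit-binding protein, a plastid chaperonin. It had 0.283, 0.512 and 0.168 RPKM in PR NSd and 0.389, 0.439 and 0.425 RPKM in ripe NSd. Its Sd values were 7.52, 7.19 and 8.81 RPKM at PR and 9.44, 6.42 and 7.85 RPKM at ripe. On average NSd minus Sd was -2.55 ± 0.11 (SE, limma adjusted p of 3.98e-07), and the stages gave -2.57 at PR and -2.54 at ripe. LOC105043987, a beta subunit of the same chaperonin, went the other way, at 3.32 to 8.61 RPKM in the NSd libraries and 1.51 to 2.36 RPKM in the Sd libraries. Of 7 such subunit loci tested, 1 was constant in each direction, but the beta subunit was not constant on deposited values or with rRNA left out, where 1 lower and no higher locus was. These 2 loci, and the others of this paragraph apart from RGLG2, LOC105034684 and bark storage protein A, were chosen after their values were seen. The ubiquitin ligase RGLG2 (LOC105049556) had 0.215, 0.54 and 0.501 RPKM in PR NSd, against 4.44, 4.72 and 4.87 in PR Sd, and 0.963, 0.548 and 0.268 RPKM in ripe NSd, against 4.73, 5.91 and 5.64 in ripe Sd. Limma gave an average difference of -1.89 ± 0.11 (SE) with an adjusted p of 3.64e-06, made up of -1.83 at PR and -1.95 at ripe. Auxin response factor 12 (LOC105034684), a DNA-binding factor of the auxin response, varied little within a group. It had 3.29, 3.53 and 3.71 RPKM in PR NSd, against 11.4, 12.6 and 13.6 RPKM in PR Sd. Ripe values were 4.46, 4.38 and 4.66 RPKM in NSd, against 13, 14.3 and 16.1 RPKM in Sd. Its palm difference was -1.25 at PR and -1.42 at ripe, and -1.33 ± 0.077 (SE) on average (limma, adjusted p of 4.07e-06). Bark storage protein A (LOC105040850), named for a vegetative storage protein of poplar, was at 0.071 to 4.59 RPKM in NSd, against 32.1 to 52.9 RPKM in Sd, with a difference of -4.42 ± 0.28. A mitochondrial cytochrome c oxidase subunit 6a (LOC105058287), a plastid methionine sulfoxide reductase (LOC105057869) and a glycolytic phosphoglycerate mutase (LOC105044879) were lower in the same even way. Their differences were -2.14 at PR and -2.02 at ripe for the oxidase subunit, -1.56 and -2.01 for the reductase and -1.26 and -1.55 for the mutase.

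On the higher side, the RNA-processing protein LSM2 (LOC105035419), also chosen after its values were seen, had 75.5, 78.7 and 79.2 RPKM in PR NSd, against 38.6, 42.1 and 42.4 RPKM in PR Sd. It had 103, 91 and 82.8 RPKM in ripe NSd, against 39.8, 45.4 and 39.5 RPKM in ripe Sd. This is an average difference of 1.25 ± 0.068 (SE), or 1.31 at PR and 1.19 at ripe (adjusted p of 3.19e-06 by limma). The 2 palms did not overlap, and each group was tight. A CRM domain protein of the plastid (LOC105039001), a family known for intron splicing, was at 40.8 to 64.1 RPKM in NSd, against 19.5 to 25 RPKM in Sd, with a difference of 1.37 ± 0.085. B-box zinc finger protein 32 (LOC105050857), of a family that acts in light signaling in Arabidopsis, had the largest average difference of the higher loci with a description, at 3.23 ± 0.22 (2.79 at PR and 3.68 at ripe). A pair of plastid loci chosen after their values were seen, 4-hydroxyphenylpyruvate dioxygenase (LOC105035707), which opens tocopherol and plastoquinone synthesis, and the import protein HP30 (LOC105036351), differed by 1.06 and 1.1. Both fell under the limit of 1 on RPKM as deposited, at 0.83 and 0.87, and the call of LOC105035707 also ended without replicate 1, at 0.98.

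**Figure D2:**
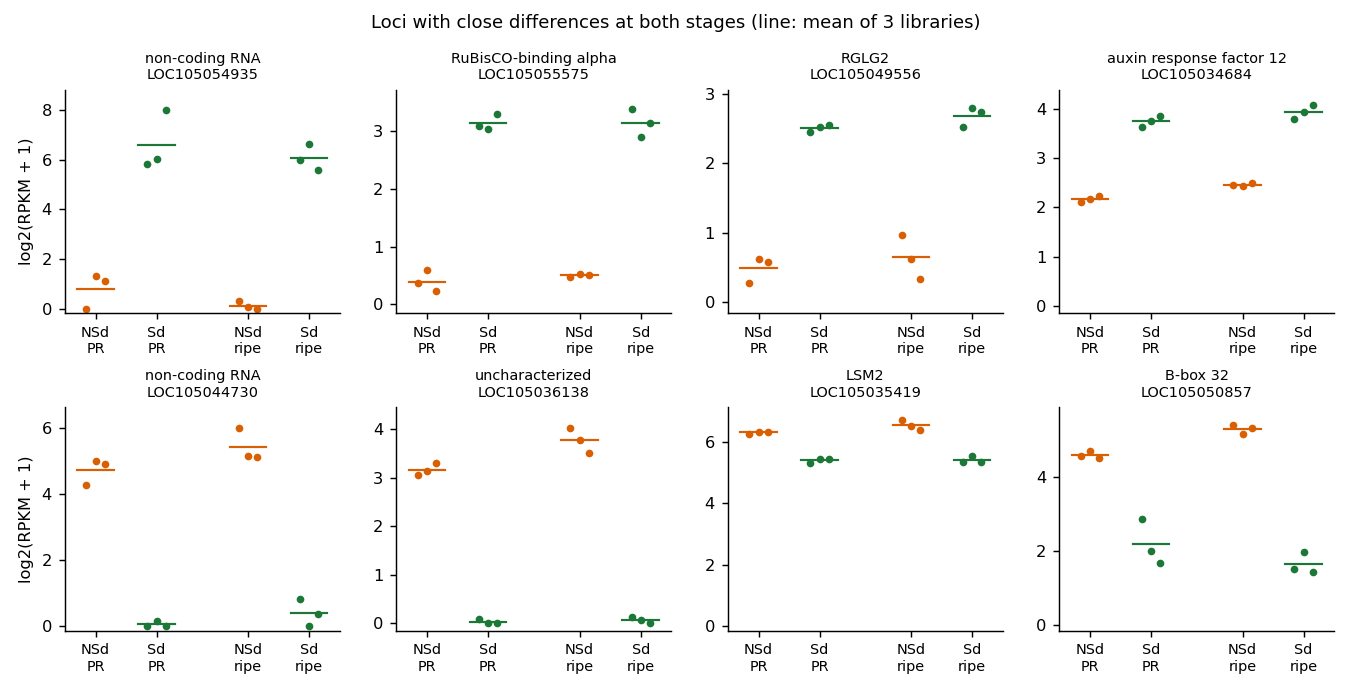
RPKM as deposited, as log2(RPKM + 1) on the y axis, of 8 loci with close palm differences at both stages. Points are libraries (orange NSd, green Sd), lines are means of 3 libraries, and groups run NSd and Sd at PR, then NSd and Sd at ripe, and in each panel the 6 NSd points do not overlap the 6 Sd points.

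A locus near 0 RPKM in 1 palm was defined as under 0.1 RPKM in its 6 libraries and at least 1 RPKM in all 6 of the other palm. Only 3 loci met this, and 5 did without replicate 7. Aspartyl protease family protein 1 (LOC105055132) had 0.0679, 0.0715 and 0 RPKM in PR NSd and 0.0466, 0.0425 and 0 RPKM in ripe NSd. Its Sd values were 1.55, 1.91 and 2.04 RPKM at PR and 1.03, 2.2 and 1.92 RPKM at ripe. These are 14 reads over the NSd libraries and 649 over the Sd libraries. In the other direction, the uncharacterized locus LOC105036138 had 7.35, 7.83 and 8.89 RPKM in PR NSd and 15.4, 12.7 and 10.5 RPKM in ripe NSd, while its Sd libraries held 0.0598, 0 and 0 RPKM at PR and 0.0923, 0.0517 and 0 RPKM at ripe. The average difference was 3.53 ± 0.087 (SE), with 3.41 at PR and 3.65 at ripe (limma, adjusted p of 1.49e-09). LOC105051623, also uncharacterized, had 1.39 to 3.93 RPKM in NSd (211 reads) and a single read in Sd, a ratio of 225 with a 95% exact counting interval of 40 to 8940. Such intervals cover counting error only.

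With a limit of 0.5 RPKM, 5 loci were near 0 in NSd and 5 in Sd. Those in NSd included metallothionein-like protein type 2 (LOC105044410), a metal-binding protein, at 0 to 0.393 RPKM, against 1.34 to 2.9 RPKM in Sd, and UPSTREAM OF FLC (LOC105046155) at 0 to 0.369 RPKM, against 1.84 to 3.01 RPKM. The other 2 were the uncharacterized loci LOC105033586, a non-coding RNA, and LOC105035131, with differences of -1.38 and -1.38. Those in Sd included temperature-induced lipocalin-1 (LOC105052950), at 1.33 to 3.63 RPKM in NSd, against 0.0455 to 0.363 RPKM in Sd, a pigment glucosyltransferase (LOC105039019), at 1.31 to 2.83 RPKM, against 0.146 to 0.392 RPKM, and the non-coding RNA LOC105040061. The glucosyltransferase was called but was not constant, and it was not called without the PR NSd libraries. With a mean of at least 1 RPKM at each stage of the other palm, a rule added after the data were seen, 5 loci were near 0 in NSd and 3 in Sd. Among them the non-coding RNA LOC105042384 had 1 read over the NSd libraries and 159 over the Sd libraries. A receptor kinase named for rice Xa21 (LOC105035993) had 0 RPKM in all 6 NSd libraries, against 0.854, 3.76 and 6.4 RPKM in PR Sd and 4.94, 3.13 and 3.62 RPKM in ripe Sd (1599 reads). Set against a floor of 3 reads over the 6 NSd libraries (0.00713 RPKM), its pooled RPKM was at least 499-fold lower in NSd. The non-coding RNA LOC105049854 was at 0 RPKM in all 6 Sd libraries, with 0.714 to 2.56 RPKM in NSd (145 reads), at least 51.6-fold higher in NSd against a floor of 3 reads over the 6 Sd libraries (0.0357 RPKM). A probable polygalacturonase (LOC105039387), of the enzymes that cut pectin, had 0, 0 and 0 RPKM in PR NSd and 0.0548, 0 and 0.0249 RPKM in ripe NSd. In Sd it had 0.82, 1.04 and 1.17 RPKM at PR and 1.26, 1.18 and 1.18 RPKM at ripe. Its difference of -0.99 ± 0.078 stood just short of the limit of -1, and passed it on RPKM as deposited, at -1.05. Whether a palm near 0 lacks the transcript or carries a sequence that maps poorly to the reference of the African species was not tested.

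Structural wall proteins made up 4 of the 5 loci of the lower set with the highest group mean. Of 102 tested loci for wall proteins and wall synthases, 4 were constant and all 4 were lower glycine-rich proteins. The median of the list was -0.0195, beside -0.0153 for all loci, and the 4 were called without the PR NSd libraries and lower under each scaling. Of 20 tested glycine-rich wall protein loci, grouped after the values were seen, the median was -0.0286. At PR 3 of these 20 were called higher in NSd and 5 lower, and at ripe 0 and 4. The putative glycine-rich protein LOC105037859 had 192, 198 and 189 RPKM in PR NSd, against 1597, 1990.5 and 2399 RPKM in PR Sd. At ripe it had 913, 509 and 837 RPKM in NSd, against 2785, 3912 and 3477 RPKM in Sd. It differed by -2.54 ± 0.20 (SE) on average, -2.94 at PR and -2.14 at ripe (adjusted p of 3.26e-05 by limma). Both palms held more of it at the ripe stage, and ripe NSd stayed below PR Sd. LOC105033391, glycine-rich protein 2, had the same order, at 109 ± 11.7 RPKM in PR NSd and 960.3 ± 19.8 RPKM in PR Sd (SD, n = 3 each). Its ripe means were 464 ± 32.6 RPKM in NSd and 1753 ± 314 RPKM in Sd, and the average difference was -2.28 ± 0.16.

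The other glycine-rich loci were close to 0 in PR NSd. LOC105054461 (glycine-rich protein 1) had 0.483, 1.4 and 0.716 RPKM in PR NSd, against 108, 105 and 117 RPKM in PR Sd. Its ripe values were 9.37, 12.8 and 12.6 RPKM in NSd, against 56.2, 70.6 and 64.6 RPKM in Sd. On average NSd minus Sd was -3.99 ± 0.51 (SE, limma adjusted p of 7.77e-04), and the stages gave -5.68 at PR and -2.3 at ripe. The difference was thus smaller at ripe, by 3.38 (interaction adjusted p of 2.58e-05 by limma). LOC105043920 (glycine-rich 1.8-like) ranged over 0.318 to 25.8 RPKM in the NSd libraries, against 40.2 to 73.3 RPKM in the Sd libraries, with a difference of -4.55 at PR and -1.89 at ripe. Early nodulin-75, a proline-rich protein first described in soybean nodules, was represented by 2 loci that were both constant. LOC105059233 had 233, 445 and 552 RPKM in PR NSd, against 10682, 9001 and 9524 RPKM in PR Sd. At ripe it had 5091, 4139 and 3444 RPKM in NSd, against 15947, 15951 and 13931 RPKM in Sd. Limma gave an average difference of -3.03 ± 0.39 (SE) with an adjusted p of 8.33e-04, made up of -4.25 at PR and -1.8 at ripe. LOC105059232 had the same pattern at a lower level, 27.4 to 728 RPKM in NSd and 989 to 2313 RPKM in Sd, with differences of -4.38 and -1.93 at the 2 stages. BWA-MEM assigns a read that fits several transcripts equally to 1 of them, so loci that share a description, such as these 2, are uncertain as single loci.

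**Figure D3:**
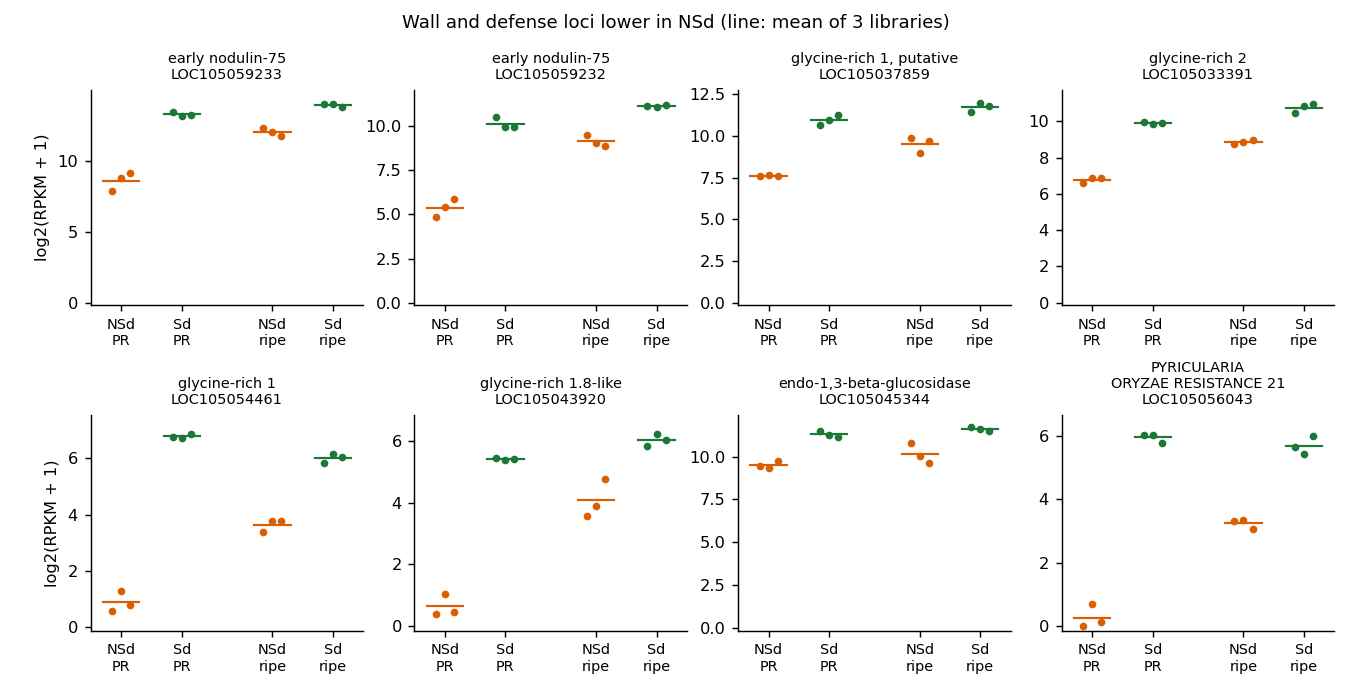
RPKM as deposited, as log2(RPKM + 1) on the y axis, of wall and defense loci lower in NSd, with points as libraries (orange NSd, green Sd) and lines as means of 3. In each of the 8 panels the NSd points lie below the Sd points at both stages, and the fitted difference, on rescaled values, is smaller in size at ripe than at PR in each, by least at the glucosidase (-1.39 at PR and -1.37 at ripe).

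Loci of defense and of calcium-linked kinases were also in the lower set. Of 6 loci named for rice PYRICULARIA ORYZAE RESISTANCE 21, a proline-rich protein with a metal-binding domain whose loss in rice gives blast resistance, 3 were constant and lower, a group formed after the values were seen. LOC105056043 had 0, 0.602 and 0.0902 RPKM in PR NSd, against 65.2, 64.9 and 54.5 RPKM in PR Sd. It had 8.93, 9.09 and 7.43 RPKM in ripe NSd, against 49.6, 42 and 62.7 RPKM in ripe Sd. Its palm difference was -5.55 at PR and -2.38 at ripe, and -3.97 ± 0.48 (SE) on average (limma, adjusted p of 5.71e-04). LOC105056045 and LOC114914741 were at 0 RPKM in all PR NSd libraries and at 0.735 to 1.28 and 0.218 to 0.661 RPKM in ripe NSd, while their Sd libraries held 2.86 to 4.93 and 1.89 to 3.65 RPKM. In the list of chitinases, glucanases and PR proteins, 112 tested, 4 loci were constant and lower and 1 was constant and higher. These are 4.46%, beside 0.864% of all loci tested, and the list median was 0.16. At PR 23 of the 112 were called higher in NSd and 12 lower, and at ripe 1 and 7. A glucan endo-1,3-beta-glucosidase (LOC105045344), an enzyme that cuts callose-type glucans, had 692, 639 and 858 RPKM in PR NSd, against 2921, 2413 and 2280.01 RPKM in PR Sd. It had 1793, 1053 and 792 RPKM in ripe NSd, against 3358, 3098 and 2834 RPKM in ripe Sd. This is an average difference of -1.38 ± 0.16 (SE), or -1.39 at PR and -1.37 at ripe (adjusted p of 4.45e-04 by limma). The others were PR-1 type proteins described as PRB1-3: LOC105061190 at 0.238 to 2.78 RPKM in NSd and 7.09 to 8.62 RPKM in Sd, LOC105037067 at 0.433 to 1.85 and 4.16 to 6.18 RPKM, and LOC105061570 at 0 to 0.819 and 1.13 to 7.92 RPKM. LOC105061570 lost its call without the PR NSd libraries (adjusted p of 0.0395 by limma). The 8 tested PRB1-3 loci, grouped after the values were seen, had a median of 0.30, with 0.84 at PR and -0.51 at ripe. At PR 2 of them were called higher in NSd and 3 lower. The constant and higher locus of the list of chitinases, glucanases and PR proteins was cysteine proteinase inhibitor 12.

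Among 51 tested calcium-dependent and CBL-interacting kinases, which pass on calcium signals, 4 were constant and lower and none was constant and higher. These are 7.84%, beside 0.864% of all loci tested, in a group formed after the values were seen, and the group median was -0.11. At PR 5 of the 51 were called higher in NSd and 4 lower, and at ripe 0 and 5. CBL-interacting protein kinase 1 (LOC105040098) had 1.73, 1.8 and 2.96 RPKM in PR NSd, against 50.8, 54.7 and 50.2 RPKM in PR Sd. Its ripe values were 14, 13.3 and 11.9 RPKM in NSd, against 47.1, 53.9 and 68.4 RPKM in Sd. The average difference was -2.86 ± 0.28 (SE), with -3.77 at PR and -1.95 at ripe (limma, adjusted p of 1.59e-04). The others, chosen after their values were seen, were CIPK5 (LOC105060190, -1.29) and the calcium-dependent kinases LOC105032049 (-1.76) and LOC105041792 (-1.34), and all 4 were also called without the PR NSd libraries. The receptor-like kinase list, drawn by description, left out the Lr10, CCR3 and LYK5-like kinase loci that are given below as higher. Of its 306 loci tested, 4 were lower and 1, a SOBIR1 homolog, was higher. Besides the Xa21-like locus these were an L-type lectin receptor kinase (LOC105032665, 0.553 to 2.01 RPKM in NSd and 5.85 to 7.76 RPKM in Sd), a wall-associated receptor kinase (LOC105054851), whose 0.112 to 2.51 RPKM in NSd overlapped its 1.64 to 11.7 RPKM in Sd, and an LRR kinase (LOC105058526, 0 to 0.0513 and 0.954 to 2.11 RPKM). Linoleate 13S-lipoxygenase 2-1 (LOC105039460), whose kind of enzyme starts jasmonate synthesis, was the 1 constant locus among 38 of the jasmonate list. It had 0.103, 0.279 and 0.226 RPKM in PR NSd, against 19.4, 21.2 and 15.7 in PR Sd, and 6.27, 5.36 and 4.88 RPKM in ripe NSd, against 12.7, 12.3 and 22.8 in ripe Sd. It differed by -2.57 ± 0.41 (SE) on average, -3.88 at PR and -1.27 at ripe (adjusted p of 0.00248 by limma). Isochorismate synthase 2 (LOC105053482), on the route to salicylate, and NDR1/HIN1-like protein 1 (LOC105052073), both chosen after their values were seen, differed by -1.61 and -1.78.

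The remaining named loci of the lower set served metabolism and gene control. Non-symbiotic hemoglobin 1 (LOC105033708), an oxygen-binding protein of low-oxygen tissue, had 2.75, 2.13 and 2.73 RPKM in PR NSd, against 32.8, 23.8 and 44.6 RPKM in PR Sd. Its level was higher at ripe in both palms, with 39.5, 30.4 and 48.5 RPKM in NSd, against 107, 122 and 106 RPKM in Sd. On average NSd minus Sd was -2.18 ± 0.27 (SE, limma adjusted p of 6.76e-04), and the stages gave -2.93 at PR and -1.43 at ripe. Ripe NSd and PR Sd therefore overlapped. UDP-glycosyltransferase 91C1 (LOC105057418) was at 3.83 to 19.2 RPKM in NSd and 29.9 to 74.2 RPKM in Sd, and its difference was larger in size at ripe (-2.71) than at PR (-1.55), without an interaction call. UDP-glycosyltransferase 92A1 (LOC105043139) was at 0 to 0.236 RPKM in NSd and 0.813 to 2.58 RPKM in Sd. The differences of an invertase inhibitor (LOC105054937), of the ubiquitin ligase ORTHRUS 2 (LOC105051099), whose family maintains DNA methylation in Arabidopsis, and of the RNA-binding protein hnRNP A3 (LOC105060056) were -2.46, -2.3 and -1.97, each with libraries apart. Gibberellin-regulated protein 2 (LOC105035560, -1.82) and the MYB-related factor Hv33-like (LOC105046112, -1.5) stayed at or under 10.2 RPKM in every library. The photosystem protein psbY (LOC105043521) was the 1 constant locus among 51 photosynthesis loci, at 1.18 to 4.7 RPKM in NSd and 5.83 to 11.7 RPKM in Sd. The median of that list was -0.34, the most negative of the lists, with -0.59 at PR and 0.12 at ripe.

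Of 106 ERF and DREB transcription factors tested, 7 were constant and higher and none was constant and lower. When RPKM was not rescaled, or rRNA was left out of the totals, 1 was constant and lower. The list median was 0.15 (0.00225 on deposited values). A dehydration-responsive element-binding protein 1C (LOC105054588), a regulator of the cold and drought response, had 726, 608 and 247 RPKM in PR NSd, against 277, 199.8 and 135 RPKM in PR Sd. It had 358, 471 and 551 RPKM in ripe NSd, against 50.5, 56 and 22 RPKM in ripe Sd. Limma gave an average difference of 2.62 ± 0.43 (SE) with an adjusted p of 0.00328, made up of 1.69 at PR and 3.54 at ripe. The other DREB1C locus (LOC105059334) had 722, 639 and 307 RPKM in PR NSd, against 415, 198 and 102 RPKM in PR Sd. Its ripe values were 296, 388 and 441 RPKM in NSd, against 44.4, 48.4 and 42.5 RPKM in Sd. Its palm difference was 1.76 at PR and 3.07 at ripe, and 2.42 ± 0.38 (SE) on average (limma, adjusted p of 0.00240). On the deposited values PR NSd replicate 3 lay below PR Sd replicate 7 at both DREB1C loci, and LOC105054588 was apart only after rescaling. With DREB1G (LOC105043386, 168 to 668 RPKM in NSd and 37.9 to 243 RPKM in Sd, 1.9), the 3 loci summed to 2116, 1900.5 and 814 RPKM in PR NSd and 934, 559.8 and 416 RPKM in PR Sd, and to 822, 1090.5 and 1272 RPKM in ripe NSd and 149, 185 and 103 RPKM in ripe Sd. At PR the sum in NSd replicate 3 lay below that in Sd replicate 7, so the palms overlapped there, while at ripe every NSd sum was above every Sd sum. ERF109 (LOC105060890), a redox-responsive factor in Arabidopsis, had 405, 411 and 194 RPKM in PR NSd, against 275, 145 and 45 RPKM in PR Sd. It had 169.9, 222 and 233 RPKM in ripe NSd, against 13.8, 18.8 and 15 RPKM in ripe Sd, a difference of 2.74 ± 0.47, and its call ended without replicate 9 (adjusted p of 0.0108 by limma). ERF071 (LOC105058243, 2.67), ERF018 (LOC105056759, 2.13) and ERF017 (LOC105042035, 1.61) were the others. ERF018 lost its call without replicate 1, 2, 4, 6, 11 or 12, with adjusted p of up to 0.0140 by limma and differences of 1.84 to 2.37. Without the PR NSd libraries 5 of the 7 were called, ERF071 and ERF018 having adjusted p of 0.0383 and 0.0225.

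XTH loci were the wall enzymes of the higher set. Of 27 tested, 4 were constant and higher and none was lower, and the list median was 0.54, beside -0.0153 for all loci, and 0.49 and 0.55 under the other scalings. LOC105049189 (XTH 23) had 1355, 1535 and 660.3 RPKM in PR NSd, against 1060.5, 588 and 322 RPKM in PR Sd. It had 705, 1522 and 1467 RPKM in ripe NSd, against 158, 137 and 64.3 RPKM in ripe Sd. This is an average difference of 2.38 ± 0.48 (SE), or 1.33 at PR and 3.43 at ripe (adjusted p of 0.00820 by limma). The palms were apart at ripe and overlapped at PR, where replicate 7 of Sd was higher than replicate 3 of NSd. LOC105049188 (XTH 23, 79 to 282 RPKM in NSd and 7.72 to 123 RPKM in Sd) and LOC105050826 (XTH 22, 75.9 to 284 and 12.3 to 197 RPKM) showed the same overlap at PR, with differences of 2.61 and 2.09. Of the 4, LOC105050824 (XTH 22) had libraries apart over both stages, with 29.4, 46 and 22.8 RPKM in PR NSd, against 5.32, 4.92 and 2.11 RPKM in PR Sd. At ripe it had 8.87, 10.8 and 9.12 RPKM in NSd, against 1.43, 4.42 and 2.02 RPKM in Sd. The average difference was 2.38 ± 0.32 (SE), with 3.1 at PR and 1.66 at ripe (limma, adjusted p of 9.94e-04). It was not called without the PR NSd libraries (1.68, adjusted p of 0.0116 by limma). The calls at LOC105049189 and LOC105050826 were narrow: each ended in 10 of the 12 fits that left out a library, all but those without replicate 3 or 7, with differences of 2.08 to 2.69 and 1.87 to 2.39 and adjusted p of up to 0.0232 and 0.027 by limma. The call at LOC105049188 ended without replicate 1, 2, 9 or 11 (adjusted p of up to 0.0137), and 2 of the 4 XTH loci were constant on RPKM as deposited. No locus was constant among 30 expansins and endoglucanases, 67 pectin enzymes, 40 class III peroxidases or 110 laccases and phenylpropanoid enzymes tested. Constant loci were 0.864% of all loci tested, so a count of 0 does not set lists of these sizes apart. On deposited values 1 lower locus appeared in each of the first 3 lists.

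**Figure D4:**
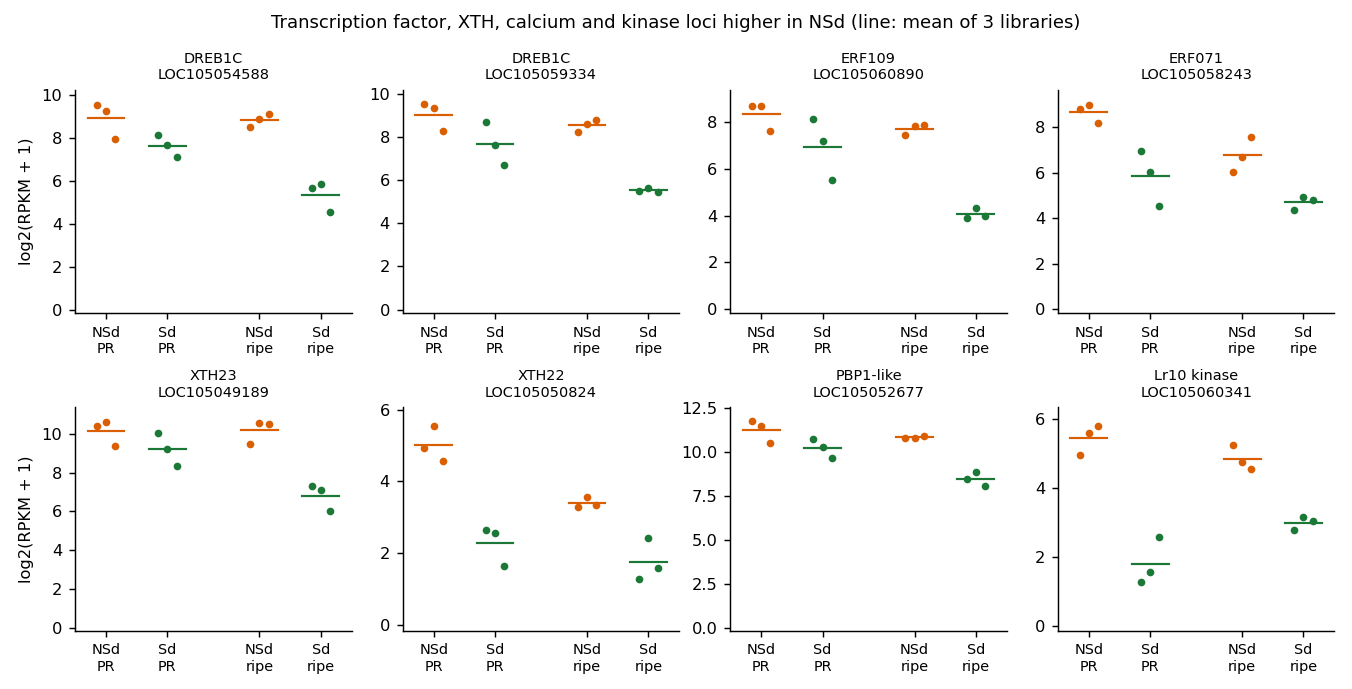
RPKM as deposited, as log2(RPKM + 1) on the y axis, of 8 loci higher in NSd: ERF and DREB factors, XTHs, a calcium-binding protein and a kinase. Points are libraries (orange NSd, green Sd, replicates from left to right in their order) and lines are means of 3, and PR Sd replicate 7 is the highest of its group at all but the Lr10 kinase.

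Of 116 calcium sensors tested, 5 were constant and higher and none was lower (median 0.19, and -0.0404 on deposited values, where 2 were constant). PBP1-like (LOC105052677), named for a protein that binds the kinase PINOID in Arabidopsis, had 3472, 2822 and 1449 RPKM in PR NSd, against 1696, 1269.8 and 801 RPKM in PR Sd. It had 1783, 1798 and 1914 RPKM in ripe NSd, against 361, 471 and 274 RPKM in ripe Sd. It differed by 1.91 ± 0.30 (SE) on average, 1.42 at PR and 2.41 at ripe (adjusted p of 0.00237 by limma). On deposited values PR NSd replicate 3 lay below PR Sd replicate 7, and the ripe groups were apart. KIC (LOC105045379), which binds a kinesin in Arabidopsis, differed by 1.93, CML19 (LOC105057120) by 1.94, and the CML31 loci LOC105039372 and LOC105050437 by 2.05 and 1.39. CML19 lost its call in 10 of 12 fits that left out a library, all but those without replicate 4 or 9, and LOC105039372 in 9, all but those without replicate 3, 7 or 8 (adjusted p of up to 0.0202 and 0.0158 by limma, with differences of 1.58 to 2.12 and 1.78 to 2.36). LOC105050437 lost its call without replicate 2 (adjusted p of 0.0104). Protein phosphatase 2C 32, of a family that includes repressors of abscisic acid signaling, had 2 constant loci, LOC105057113 (2) and LOC105044577 (1.5). The call of LOC105044577 ended in 10 of the 12 fits, all but those without replicate 3 or 7 (differences of 1.35 to 1.71 and adjusted p of up to 0.0210). The abscisic acid list, 121 tested, held 2 constant loci, both higher (1.65%, beside 0.864% of all loci tested). Its median was -0.077, and on deposited values 1 locus was constant and higher and 1 constant and lower. At PR 14 of the 121 were called higher in NSd and 9 lower, and at ripe 3 and 4.

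Rust resistance kinases of the Lr10 type, named for a wheat gene against leaf rust, held 3 constant loci of 16 tested, a group formed after the values were seen. LOC105060341 had 29.9, 47.3 and 55 RPKM in PR NSd, against 1.4, 1.92 and 4.92 RPKM in PR Sd. It had 36.7, 25.7 and 22.6 RPKM in ripe NSd, against 5.9, 7.9 and 7.14 RPKM in ripe Sd. On average NSd minus Sd was 2.97 ± 0.37 (SE, limma adjusted p of 6.15e-04), and the stages gave 4.02 at PR and 1.91 at ripe. LOC105060406 and LOC105060339 differed by 2.87 and 1.92, and all 3 were also called without the PR NSd libraries and were apart in all libraries. Their difference was smaller at ripe. The receptor kinase CCR3 (LOC105044610) was at 21.6 to 35.9 RPKM in NSd and 3.83 to 16.2 RPKM in Sd. Of 562 F-box and ubiquitin ligase loci tested, 6 were constant and higher and 3 lower. Of 65 U-box ubiquitin ligases, also grouped after the values were seen, 4 were constant and higher and none was constant and lower under any scaling. These are 6.15%, beside 0.864% of all loci tested. At PR 15 of the 65 were called higher in NSd and 0 lower, and at ripe 2 and 2. U-box 52 (LOC105054759) was called in opposite directions, 2.19 at PR and -1.94 at ripe. LOC105033288 (U-box 21-like) had 255, 361 and 261 RPKM in PR NSd, against 76, 60.3 and 23.5 RPKM in PR Sd. At ripe it had 89.99, 108 and 126 RPKM in NSd, against 38, 36.7 and 31.1 RPKM in Sd. Limma gave an average difference of 2.31 ± 0.31 (SE) with an adjusted p of 0.00106, made up of 2.97 at PR and 1.64 at ripe. LOC105038327, LOC105050331 and LOC105052277 differed by 1.66, 1.68 and 1.29, and of the 4 only LOC105050331 was called without the PR NSd libraries, the others having adjusted p of 0.0195, 0.0287 and 0.0397 by limma. LOC105052277 also lost its call without replicate 2 or 8 (adjusted p of up to 0.0106). A pair of LYK5-like loci, named for a chitin receptor of Arabidopsis, differed by 1.56 (LOC105039373) and 1.11 (LOC105039374), and the first lost its call in 8 of the 12 fits, all but those without replicate 3, 7, 8 or 9 (differences of 1.33 to 1.75, adjusted p of up to 0.0150), and the other without replicate 9, at a difference of 0.95. Neither was constant on deposited values (1.33 and 0.9), and 1 was with rRNA left out.

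Zinc finger protein ZAT12 (LOC105044475), a factor of the oxidative stress response, had 73, 94.5 and 71.6 RPKM in PR NSd, against 6.43, 11.1 and 6.95 RPKM in PR Sd. It had 35.1, 23.7 and 19.6 RPKM in ripe NSd, against 12.9, 8.31 and 5.43 RPKM in ripe Sd. Its palm difference was 3.55 at PR and 1.54 at ripe, and 2.55 ± 0.36 (SE) on average (limma, adjusted p of 0.00137). Its call was lost without the PR NSd libraries (1.55, adjusted p of 0.0128 by limma). ZAT10 (LOC105034068), far more abundant, had 1046 to 1989 RPKM in NSd and 598 to 1360.3 RPKM in Sd. Its difference of 1.1 fell to 0.87 on deposited values and lost its call without replicate 1, 2, 8 or 9 (0.98 to 1.21 over all fits). ZAT12 and ZAT10 were the 2 constant loci of 17 ZAT loci tested, a group formed after the values were seen. The group median was 0.042, with 0.63 at PR and -0.21 at ripe. A further locus, described as ZAT12-like (LOC105044471), was called in opposite directions, 2.46 at PR and -1.93 at ripe. WRKY53 (LOC105047564), which promotes leaf senescence in Arabidopsis, differed by 2.1, with 3.07 at PR and 1.13 at ripe, and its call ended in 7 of the 12 fits, those without replicate 1, 2, 3, 7, 8, 9 or 12 (differences of 1.89 to 2.39 and adjusted p of up to 0.0138). It was the 1 constant locus of 71 WRKY factors. None was held by 66 NAC, 78 bHLH, 27 MADS-box and 83 homeobox factors, lists too short to stand out against 0.864% of all loci tested. MYBAS1 (LOC105044477) was at 5.91 to 11.5 RPKM in NSd and 0.762 to 5.07 RPKM in Sd. NDR1/HIN1-like protein 10 (LOC105060420), of a family linked to disease resistance, was among the most abundant constant loci, at 2908 to 4029 RPKM in NSd, overlapping 939.6 to 3331 RPKM in Sd (1.44, with the call lost without replicate 1 or 2 at an adjusted p of up to 0.0106).

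Hormone, redox and lipid loci made up the rest of the named higher set. Tryptophan aminotransferase-related protein 3 (LOC105050098), of the enzyme family that starts auxin synthesis, had 19.9, 24.9 and 27.3 RPKM in PR NSd, against 4.38, 5.01 and 4.62 RPKM in PR Sd. It had 27.2, 20.7 and 14.1 RPKM in ripe NSd, against 6.77, 5.69 and 6.25 RPKM in ripe Sd. This is an average difference of 2.05 ± 0.17 (SE), or 2.51 at PR and 1.59 at ripe (adjusted p of 5.44e-05 by limma). SAUR76 (LOC105042016), an auxin-responsive protein, differed by 2.17, with the lowest NSd library at 10.8 RPKM and the highest Sd library at 10.7 RPKM, and its call ended in 9 of the 12 fits, all but those without replicate 4, 5 or 10 (differences of 1.99 to 2.52, adjusted p of up to 0.0154). The cytokinin response regulator ORR5 (LOC105042471) was at 3.22 to 12.1 RPKM in NSd and 0.857 to 3.31 RPKM in Sd. Formin-like protein 5 (LOC105060054), which builds actin filaments, had 108, 116 and 146 RPKM in PR NSd, against 26.2, 34.4 and 17.1 RPKM in PR Sd. At ripe it had 133, 94.3 and 99.5 RPKM in NSd, against 24.1, 19.2 and 50.2 RPKM in Sd. The average difference was 2.29 ± 0.24 (SE), with 2.65 at PR and 1.94 at ripe (limma, adjusted p of 2.02e-04). Another locus described as formin-like protein 5 (LOC105046938) was called in opposite directions, 1.14 at PR and -1.15 at ripe. Of 20 formin-like loci tested, grouped after the values were seen, 2 were constant and higher, and the group median was -0.076. Dehydroascorbate reductase DHAR1 (LOC105044500), which regenerates ascorbate, was at 30.1 to 76.3 RPKM in NSd and 11.8 to 19.1 RPKM in Sd (1.73), and glutathione S-transferase U10 (LOC105056589) at 1.84 to 3.92 and 0.083 to 0.687 RPKM (1.48). These were the 2 constant loci of 40 glutathione S-transferases, of which 1 was higher and 2 were lower on deposited values, and 2 were higher and 1 lower with rRNA left out. Stearoyl-ACP desaturase (LOC105048931), which makes oleate in the plastid, was at 748 to 1154 RPKM in NSd and 267 to 621 RPKM in Sd, with a difference of 1.21 that fell to 0.98 on deposited values. It was the 1 constant locus of 45 tested fatty acid synthesis loci, and the 61 loci of that list, tested or not, summed to 2820 to 2937 RPKM in PR NSd, against 3727 to 3807 in PR Sd, and 3587 to 4975 in ripe NSd, against 2148 to 3359 in ripe Sd. The cysteine protease SAG39 (LOC105033205), the RNA-editing protein OGR1 (LOC105056732) and a class III small heat shock protein (LOC105042017) differed by 1.25, 1.1 and 1.66. SAG39 lost its call without replicate 8 or 9 (adjusted p of up to 0.0106), the heat shock protein without replicate 2, 8, 9 or 12 (up to 0.0126), and OGR1 on deposited values (0.89).

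Within a palm, the ripe NSd mean was below the PR NSd mean at 90 of the 109 higher loci, beside 47.7% of all loci tested, on the rescaled log2 scale. The ripe Sd mean was below the PR Sd mean at 77 of the 109, beside 48.5%. On deposited RPKM these counts were 73 in NSd, beside 24.2%, and 77 in Sd, beside 45.8%. At the 68 lower loci the ripe mean was below the PR mean at 21 in NSd and at 24 in Sd, and these are counts of means without a test. Within Sd, replicate 7 held the highest value at 61 of the 109 higher loci and replicate 12 the lowest at 51, and within NSd replicate 1 held the highest at 51 and replicate 4 the lowest at 50. At the 68 lower loci no Sd library held the highest value at more than 21. By stage, the 3 NSd libraries were apart from the 3 Sd libraries at 96 of the 109 higher loci at PR and 106 at ripe, and at 67 of the 68 lower loci at each stage. These loci were chosen for differences past 1 at each stage in the same libraries. The share over all loci was not counted, so these counts are no separate evidence. Without the PR NSd libraries, further named loci that were not called were CML19 (LOC105057120, adjusted p of 0.133 by limma), SAUR76 (LOC105042016, 0.0871), WRKY53 (LOC105047564, 0.0521), the heat shock protein LOC105042017 (0.0479), ZAT10 (LOC105034068, 0.0371), both LYK5-like loci (0.0184 and 0.0292), both CML31 loci (0.0123 and 0.0173), both PP2C 32 loci (0.0138 and 0.0112), CCR3 (LOC105044610, 0.0195), SAG39 (LOC105033205, 0.0174), stearoyl-ACP desaturase (LOC105048931, 0.013), ORR5 (LOC105042471, 0.0129), NDR1/HIN1-like protein 10 (LOC105060420, 0.0103), SOBIR1 (LOC105031931, 0.0111) and cysteine proteinase inhibitor 12 (LOC105052443, 0.0349), at ripe-stage differences of 1.02 to 2.71. No file gives an order or time of sampling for the libraries, and the part of handling was not tested. Of the constant loci, 33 higher and 10 lower ones are described as uncharacterized, and 60 of the 177 belong to a functional list.

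**Figure D5:**
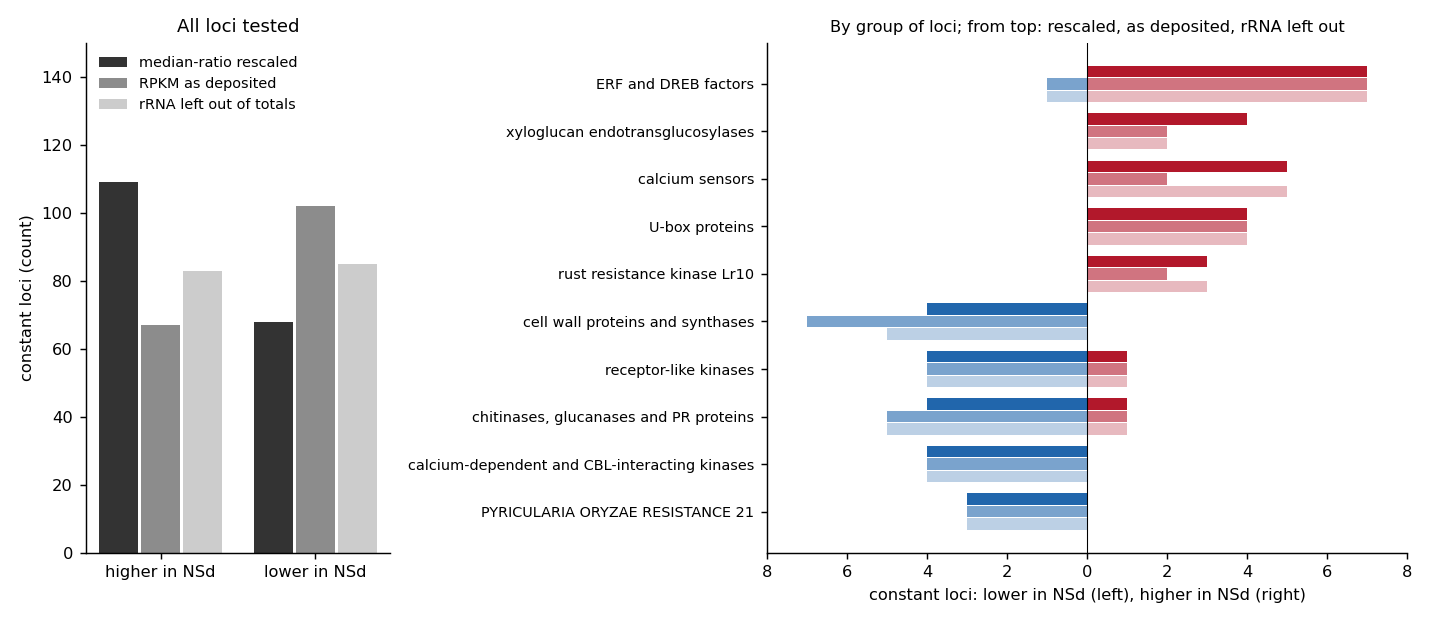
Counts of constant loci under 3 scalings of the RPKM values, for all loci tested (left, y axis in loci) and for 10 groups of loci (right, counts lower in NSd drawn to the left in blue and higher in NSd to the right in red). The all-loci count is 109 higher and 68 lower after median-ratio rescaling, 67 and 102 on RPKM as deposited, and 83 and 85 with rRNA left out of the totals, while 4 glycine-rich loci or more stay lower in the wall protein group and 7 ERF and DREB loci stay higher.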

How the data were processed

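RNA from the fruit base with the AZ was sequenced from 12 samples as single reads on a NovaSeq. Per the labels and the study's methods, the authors demultiplexed with bcl2fastq 2.20.0.422, checked reads with FastQC, aligned them with BWA-MEM to the E. guineensis (EG5) transcriptome, merged the transcripts of a locus and deposited RPKM values per locus. The submitters' processing notes also name DESeq, DESeq2 and HOMER, which were not used here. Because reads of E. oleifera were aligned to another species, loci near 0 may depend on sequence divergence, which was not tested.

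Deposited RPKM values were divided by a library factor (the median of its ratios to the loci's geometric means, taken from the 15658 loci that exceeded 1 RPKM throughout), and log2(RPKM + 1) was fitted with limma 3.58.1 (R 4.3.3, trend on) for palm and stage, 9 residual degrees of freedom, with Benjamini-Hochberg adjustment over all 20495 loci that reached 1 RPKM in any library. Fold changes on this scale understate the change of low loci. Calls needed both a difference past 1 and an adjusted p below 0.01. Differences per stage and the interaction came from the fit of the 4 groups. The procedure was tested on simulated data. The simulated libraries varied independently of each other, with no spread between bunches or between palms of a kind, so that test does not cover such spread. Depth was taken from the steps of the RPKM values.

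Members and lists were chosen with earlier results of these data known. Named loci were, by rule, up to 12 constant loci per direction with libraries apart and at least 20 RPKM, near-0 loci, up to 3 constant loci per list and constant loci that the study names. All other named loci, and the 16 families, were chosen after their values were seen: the RuBisCO-binding subunits, LSM2, the oxidase subunit, reductase, mutase, dioxygenase, HP30, near-0 loci outside the 0.1 RPKM rule other than LOC105033586 and LOC105058526, 2 of the PYRICULARIA loci, LOC105061570, the calcium-dependent kinases and CIPK5, isochorismate synthase, NDR1/HIN1-like protein 1, ERF071, ERF018, LOC105039372, 3 U-box loci, the LYK5 loci, ZAT10, SOBIR1 and cysteine proteinase inhibitor 12. Alternatives were other scalings, pseudocounts, filters, moderation, bunch means and left-out libraries.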

Additional observations from a re-analysis of the deposited data

Results flagged for a closer look

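Constant loci could still differ in size between the stages, and 15 of those named had a palm difference at ripe that differed from that at PR (interaction term of limma, values as ripe minus PR). Among loci lower in NSd, where a positive value is a smaller gap at ripe, these were non-symbiotic hemoglobin 1 (LOC105033708) by 1.5 (adjusted p of 0.00618), lipoxygenase 2-1 (LOC105039460) by 2.61 (adjusted p of 9.09e-05), CBL-interacting protein kinase 1 (LOC105040098) by 1.82 (adjusted p of 1.01e-04), glycine-rich 1.8-like (LOC105043920) by 2.67 (adjusted p of 0.000815), ORTHRUS 2 (LOC105051099) by 1.28 (adjusted p of 1.74e-04) and glycine-rich protein 1 (LOC105054461) by 3.38 (adjusted p of 2.58e-05). The difference also changed for the invertase inhibitor (LOC105054937) by 2.06 (adjusted p of 0.00263), PYRICULARIA ORYZAE RESISTANCE 21 (LOC105056043) by 3.16 (adjusted p of 4.06e-05), another locus of that name (LOC105056045) by 1.15 (adjusted p of 0.00214), early nodulin-75 (LOC105059232) by 2.45 (adjusted p of 0.000220) and the other early nodulin-75 locus (LOC105059233) by 2.44 (adjusted p of 0.000359). Among loci higher in NSd, where a negative value is a smaller gap at ripe, it changed for ZAT12 (LOC105044475) by -2.01 (adjusted p of 0.00386), an Lr10 kinase (LOC105060339) by -1.73 (adjusted p of 0.00104), another Lr10 kinase (LOC105060341) by -2.11 (adjusted p of 0.00273) and the Lr10-like kinase (LOC105060406) by -2.0 (adjusted p of 0.00190). All 15 gaps were thus smaller at ripe. The PR stage includes the 3 PR NSd libraries that stood apart from the rest, and their part in these values was not tested.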

How the results depend on the processing

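In place of the 357 calls, 412 loci were called on RPKM as deposited (115 higher, 297 lower), 263 of them among the 357, 378 with rRNA loci left out (151 higher, 227 lower), 302 of them among the 357, and 516 with a pseudocount of 0.1 (245 higher, 271 lower), so that the split depends on the scale. With 1 mean per group 645 loci were called, against 0 with the mean of each bunch as the unit, 9 with a test against a difference of 1 (constant loci also 9) and 3542 at an adjusted p under 0.05 with no limit. Leaving out single libraries gave 216 to 343 called (233, 216, 225 and 216 without replicates 1, 2, 8 and 9) and 134 to 212 constant loci. The 177 constant loci became 311 with a pseudocount of 0.1, 0 with bunch means and 105 when each stage had to be called separately. The 3 loci near 0 became 10 with a limit of 0.5 RPKM, 0 at exactly 0 RPKM, 1 with at least 5 RPKM in the other palm and 8 with a mean of 1 RPKM at both stages, and 3 to 5 without single libraries (5 without replicate 7). That mean rule, the constant loci with no interaction call and the families were chosen after seeing the data. Without the 3 PR NSd libraries 429 loci were called, and no constant count could be had. Of 104 named loci none changed direction, 11 lost their call on deposited values, 7 with rRNA left out, 25 without the PR NSd libraries and 102 with bunch means. The causes were not tested. No paired analysis was possible because the groups share no replicate numbers.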

Other observations

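At 95 loci the palms were called at both stages in opposite directions, 79 higher in NSd at PR and lower at ripe, and 16 the reverse. Each stage was called with its own libraries, and no explanation was tested. Cytosolic ribosomal protein loci (292 tested) included none that was constant, beside 0.864% of all loci tested. On rescaled values 45 of them had all NSd libraries above all Sd libraries, beside 585 of all 20495 loci. Their list median was 0.24, and 0.00954 on RPKM as deposited. Of 102 heat shock protein loci, 7 were called higher in NSd on average, beside 1.01% of all loci tested, and 1 of them was constant.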
